A study of Rattus norvegicus with 12 samples.

Results

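The cluster that the authors named DCT/CNT stands between the distal convoluted tubule (DCT) and the connecting tubule (CNT) of the rat kidney. Its members were taken as all nuclei to which the authors' low-level clustering gave that name. There were 5450 such nuclei of 217132 in all (2.51%), which made it the 13th largest of 25 clusters. The cluster held 21.2% of the 25676 nuclei of the high-level type DCT/CNT/PC, beside 10279 nuclei named DCT and 9963 named CNT/PC (connecting tubule and principal cells). The nuclei were isolated from the kidneys of 12 male ZSF1 rats, 4 groups of 3, and their RNA was sequenced nucleus by nucleus. ZSF1 rats carry a different leptin receptor mutation on each parental side. Rats that inherit both become obese and diabetic and develop kidney disease, and their lean relatives served as controls. Lean rats received no treatment, and the group named Obese received vehicle (ethanol, Kolliphor HS15 and water) for 12 weeks. The group named Obese+sGCact received BAY 1101042 (runcaciguat) at 3 mg/kg, 2 doses a day, and the group named Obese+sGCstim received BAY 1165747 (BAY-747) at 3 mg/kg, 1 dose a day, both for 12 weeks. Obese rats were 13 to 14 weeks old when dosing began, and kidneys were taken at 25 to 26 weeks. Genotype and vehicle cannot be told apart in a comparison of Obese with Lean, and the number of daily doses differed between the compounds. The nuclei came from 3 of 6 lean rats and 3 of 10 rats in each obese group.

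The distal convoluted tubule follows the thick ascending limb and reabsorbs sodium chloride through the thiazide-sensitive cotransporter NCC, the product of Slc12a3. Along the connecting tubule, sodium uptake passes to the epithelial sodium channel under the control of aldosterone, and potassium is secreted. Calcium is reabsorbed across the cells of the late distal convoluted and connecting tubule, and Slc8a1 encodes the sodium-calcium exchanger NCX1 that carries it out on the blood side. Cells with features of both segments are known from the stretch where one passes into the other. Soluble guanylate cyclase (sGC), the target of both compounds, makes cyclic GMP in response to nitric oxide. An sGC stimulator acts on the haem-containing enzyme and an sGC activator on the oxidised or haem-free form. Expression of Slc12a3, Slc8a1 and all other single genes was not analysed here, so the cluster's name was not checked against its markers. The data described are, for each nucleus, its rat, its number of unique molecular identifiers (UMIs, each standing for 1 captured transcript), its number of expressed genes, its percentage of mitochondrial UMIs, 2 cell-cycle scores, its place in the UMAP embedding and its cluster at 3 levels of detail.

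The authors' groupings named nearly the same nuclei. Their intermediate grouping kept 5235 of the 5450 nuclei (96.1%) as DCT/CNT, moved 106 to DCT and 109 to CNT/PC, and in return took in 176 nuclei of the low-level cluster DCT and 1 of CNT/PC. All 5450 belonged to the high-level type DCT/CNT/PC. Every rat contributed, from 2.17% to 13.1% of the members. The groups contributed 1357 nuclei (Lean), 828 (Obese), 1965 (Obese+sGCact) and 1300 (Obese+sGCstim). Among the members, 4 barcodes occurred in more than 1 rat and no nucleus was listed more than 1 time. A barcode found in another rat in any cluster was carried by 286 members (5.25%), against 5.42% of all nuclei.

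The libraries held between 10488 and 43484 nuclei and between 11898496 and 49272672 UMIs per rat. Even the lowest of these totals exceeded the number of nuclei loaded that is given with the processing below. The totals and that number are therefore in conflict, and the reason was not tested. Shares of all nuclei use these totals as listed and depend on them. In 3 obese rats the table stood apart. Proximal tubule clusters made up 75.8% of the nuclei of RK7_4, 92.1% of RK9_4 (both Obese) and 70.6% of RK61_4 (Obese+sGCstim), against 32.6% to 69.9% in the other 9. By this share alone RK61_4 was barely above the next rat. The nuclei named DCT carried 1.29%, 2.64% and 1.97% mitochondrial UMIs in these 3 rats and at most 0.390% in the others. Results are therefore also given without them where that changes a direction. For each rat, values over its nuclei were reduced to 1 number, and groups were compared over rats, by limma across all clusters with Benjamini-Hochberg adjustment (called at an adjusted p under 0.05) and by exact two-sided permutation tests over rats. With 3 rats against 3 the smallest p such a permutation test allows is 0.1, and with 3 lean against 9 obese rats it is 0.00909.

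DCT/CNT nuclei made up between 0.340% and 6.66% of the nuclei of a rat. Within each obese group the share differed more between rats than the group means differed from each other, but not within Lean. In lean rats it was 2.64% (RK1_4), 2.55% (RK3_4) and 3.14% (RK5_4). In Obese rats it was 1.12% (RK7_4), 0.340% (RK9_4) and 4.28% (RK16_4). Under sGCact it was 3.37% (RK43_4), 2.55% (RK45_4) and 6.66% (RK46_4), and under sGCstim 3.83% (RK57_4), 5.51% (RK58_4) and 0.652% (RK61_4). The lean rats lay close together, and all 3 fell inside the range of each obese group. The 95% Wilson interval was 0.290% to 0.400% for the lowest rat and 6.20% to 7.16% for the highest, so counting error was small beside the spread between obese rats. Such intervals cover counting error only. Group means were 2.78% ± 0.319 (Lean), 1.91% ± 2.09 (Obese), 4.19% ± 2.18 (Obese+sGCact) and 3.33% ± 2.47 (Obese+sGCstim; SD, n = 3 rats each).

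No comparison of the share passed the test. Against Lean, the log odds of the Obese group differed by -0.86 ± 0.69 (SE, adjusted p = 0.391 by limma; exact permutation p = 0.5), where 12% of the 25 clusters were called. For Obese+sGCact minus Obese the difference was 1.21 ± 0.69 (limma adjusted p = 0.496; permutation p = 0.3), an odds ratio of 3.35, with 0% of clusters called. For Obese+sGCstim minus Obese it was 0.72 ± 0.69 (limma adjusted p = 0.677; permutation p = 0.6), also with 0% called. The difference between the treated groups, sGCact minus sGCstim, was 0.48 ± 0.69 (limma adjusted p = 0.964; permutation p = 0.8), again with 0% called. The 3 obese groups together differed from Lean by -0.22 ± 0.56 in log odds (limma adjusted p = 0.977), where 4% of clusters were called. The mean share itself differed in the other direction, 3.15% in the 9 obese rats against 2.78% in Lean (exact permutation p = 0.809, higher in 15 of 27 pairs of rats), and 8 of 25 alternatives also turned the log odds, so no direction is read from this comparison. In the 3 comparisons with 0% called, limma gave 0 clusters with an unadjusted p under 0.05, and edgeR called 0 of 25. Without RK7_4, RK9_4 and RK61_4 the direction turned in 4 of these 5 differences, to 0.45, -0.11, -0.18 and 0.44 in log odds. This order leaves out sGCstim minus Obese, which kept its sign. These 3 rats had the lowest shares of all rats. They were set apart partly by their proximal tubule nuclei, which fill the denominator of the share. Leaving them out therefore raises the obese shares by construction and is no independent check. It also leaves RK16_4 as the only Obese rat.

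**Figure D1:**
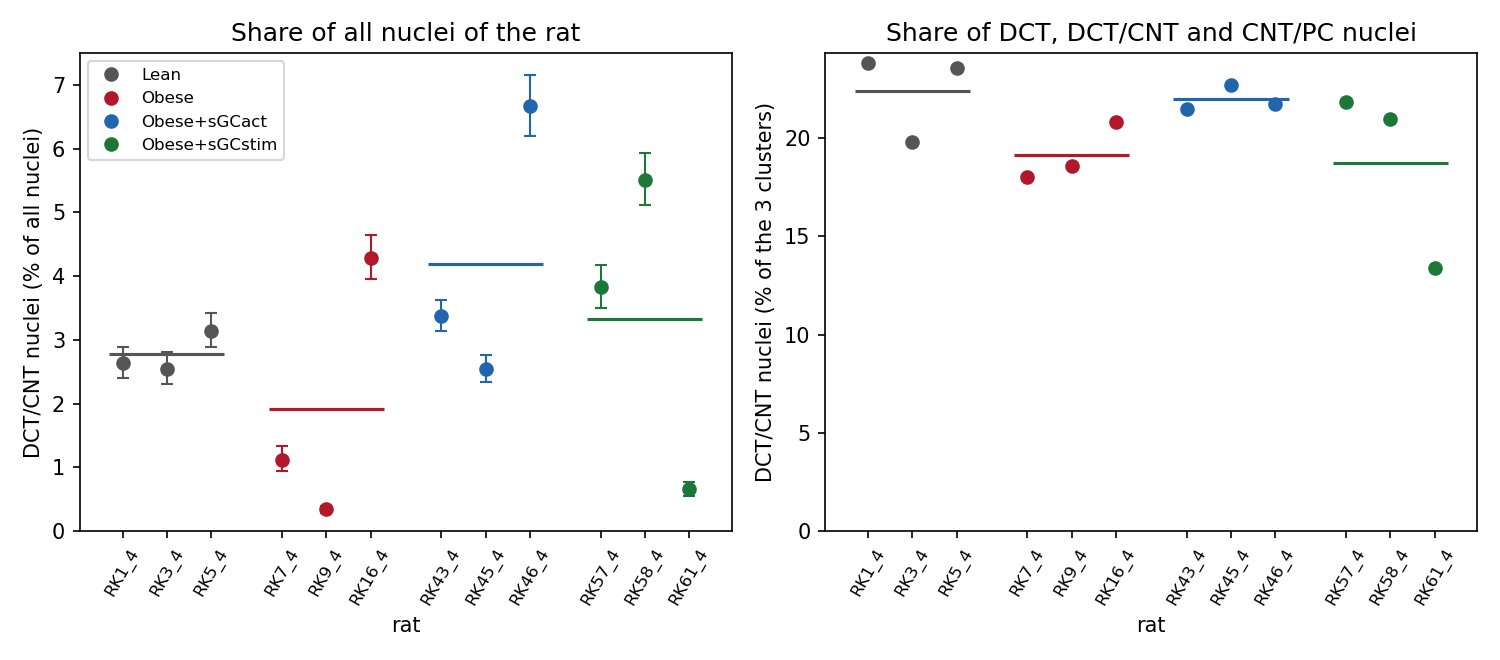
DCT/CNT nuclei in percent of all nuclei of the rat (left, bars are 95% Wilson intervals) and in percent of the nuclei named DCT, DCT/CNT or CNT/PC (right), for 12 rats with the group means as horizontal lines. The left panel spans 0.340% to 6.66%, while 11 of 12 rats lie between 18.0% and 23.8% on the right and RK61_4 lies at 13.4%.

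Within the distal nephron the cluster took a far steadier part. The highest rat exceeded the lowest 19.6-fold in the share of all nuclei, 4.50-fold in the share of nuclei outside the proximal tubule and 1.78-fold in the share of the 3 neighbouring clusters DCT, DCT/CNT and CNT/PC. In that last share the lean rats had 23.8% (RK1_4), 19.8% (RK3_4) and 23.5% (RK5_4), and the Obese rats 18.0% (RK7_4), 18.6% (RK9_4) and 20.8% (RK16_4). The sGCact-treated rats had 21.5% (RK43_4), 22.7% (RK45_4) and 21.8% (RK46_4), and the sGCstim-treated rats 21.8% (RK57_4), 21.0% (RK58_4) and 13.4% (RK61_4). All sGCact-treated rats lay above all Obese rats (exact permutation p = 0.1), and the lean and Obese rats overlapped in RK3_4 and RK16_4. The variance between rats was 0.637 times (Obese+sGCact), 1.89 times (Obese), 5.65 times (Lean) and 18.7 times (Obese+sGCstim) that of binomial counting in this share. For the share of all nuclei the same ratios were 174, 644, 6.19 and 398. By relative range DCT and CNT/PC were no less steady within the 3 clusters, with shares from 32.7% to 46.4% and from 32.8% to 43.7%.

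DCT/CNT nuclei were fewer than DCT nuclei and than CNT/PC nuclei in every rat. They numbered between 29.2% (RK61_4) and 72.6% (RK1_4) of the DCT nuclei of the same rat and between 33.0% (RK61_4) and 63.4% (RK16_4) of its CNT/PC nuclei. The log2 ratio to DCT was -0.71 ± 0.42 in Lean, -1.20 ± 0.071 in Obese, -0.81 ± 0.12 under sGCact and -1.18 ± 0.53 under sGCstim (SD, n = 3). It was larger under sGCact than in Obese in 9 of 9 pairs of rats, a difference of 0.39 (exact permutation p = 0.1, the smallest possible; adjusted p = 0.75 over the 10 ratio comparisons by permutation). That difference was -0.080 among nuclei with at most 1% mitochondrial UMIs, a filter that removed 890 DCT nuclei (8.66%) and 87 DCT/CNT nuclei (1.60%). The log2 ratio to CNT/PC was -0.86 ± 0.041 in Lean, -0.94 ± 0.27 in Obese, -0.84 ± 0.036 under sGCact and -1.10 ± 0.43 under sGCstim, with permutation p values from 0.5 to 0.7 over its 5 comparisons. Without RK7_4, RK9_4 and RK61_4 its difference turned from -0.080 to 0.20 for Obese minus Lean, from 0.095 to -0.19 for sGCact minus Obese and from -0.10 to 0.040 for the 3 obese groups minus Lean. Outside the proximal tubule the cluster's share was 4.68% ± 0.382 (Lean), 5.26% ± 1.41 (Obese), 8.72% ± 1.06 (Obese+sGCact) and 6.72% ± 4.03 (Obese+sGCstim). In this share sGCact-treated rats exceeded Obese rats in 9 of 9 pairs (exact permutation p = 0.1). The same order of rats held for CNT/PC nuclei, with 14.3%, 15.3% and 17.2% under sGCact against 10.6%, 8.33% and 10.9% in Obese. DCT nuclei made up 15.4% ± 2.58 under sGCact and 12.1% ± 2.82 in Obese, with overlap at RK16_4 (15.3%). The order was thus not particular to DCT/CNT.

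DCT/CNT nuclei carried many UMIs for a kidney nucleus. Their median number of UMIs exceeded that of the CNT/PC nuclei in 12 of 12 rats, by 1.13-fold to 1.44-fold, and the geometric mean of the medians of the other clusters in 12 of 12 rats, by 1.29-fold to 1.86-fold. Among the 22 clusters with at least 10 nuclei in every rat, the cluster ranked between 2nd and 7th from the top. Against DCT nuclei the ratio ran from 0.979 to 1.91 and was above 1 in 8 of 12 rats. The 3 highest ratios came from RK9_4, RK61_4 and RK7_4, where DCT medians were 1362, 1030 and 1454 UMIs and DCT/CNT medians 2606, 1885 and 1761. Medians of the clusters were compared within a rat as a description, without a test, because clusters were drawn from the same expression data.

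In lean rats the median was 3330 UMIs (RK1_4), 2688 (RK3_4) and 2047 (RK5_4). In Obese rats it was 1761 (RK7_4), 2606 (RK9_4) and 1699 (RK16_4). Under sGCact it was 2288 (RK43_4), 2126 (RK45_4) and 2201 (RK46_4), and under sGCstim 2015 (RK57_4), 1898 (RK58_4) and 1885 (RK61_4). Both treated groups were tight, lean and Obese rats overlapped, and every sGCact-treated rat lay above every sGCstim-treated rat (exact permutation p = 0.1, the smallest possible). The same order of all 9 pairs held in DCT and in CNT/PC nuclei, where the group means differed by 526.5 and 295.8 UMIs (exact permutation p = 0.1 each). By limma none of the differences was called for the cluster. On the log2 scale Obese minus Lean was -0.41 ± 0.30 (SE, adjusted p = 0.307 by limma) where 18.2% of clusters were called, and all 22 estimates were below 0 with a median of -0.49. The 3 obese groups minus Lean gave -0.37 ± 0.25 (limma adjusted p = 0.201; permutation p = 0.0636), again with 18.2% called. For sGCact minus Obese it was 0.15 ± 0.30 (limma adjusted p = 0.823; 4.55% called), for sGCstim minus Obese -0.038 ± 0.30 (limma adjusted p = 0.961; 0% called) and for sGCact minus sGCstim 0.19 ± 0.30 (limma adjusted p = 0.773; 0% called). The comparisons with 0% called held 2 and 1 clusters at an unadjusted p under 0.05, and sGCstim minus Obese was 0.20 without RK7_4, RK9_4 and RK61_4. Relative to the other clusters of the same rat, Obese minus Lean turned to 0.18 (limma adjusted p = 0.544) and the 3 obese groups minus Lean to 0.15 (limma adjusted p = 0.877).

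**Figure D2:**
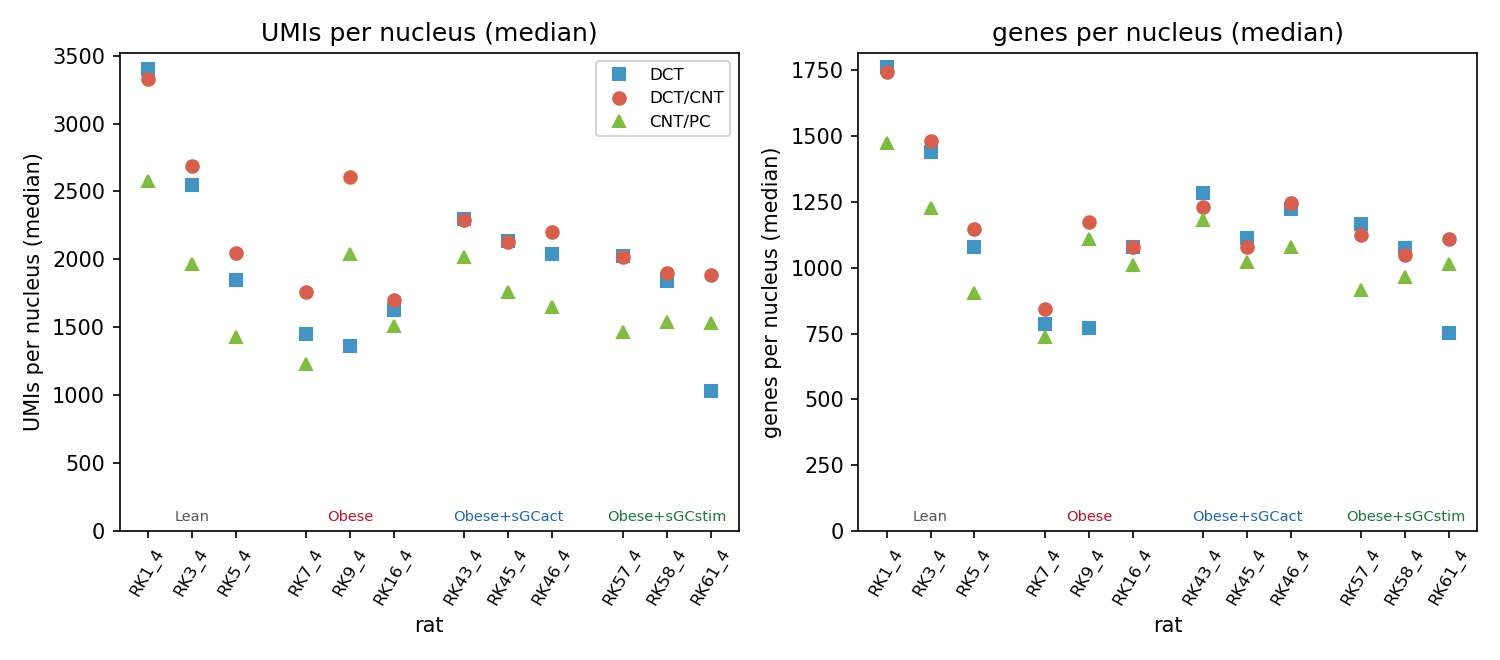
Median UMIs (left) and median expressed genes (right) per nucleus in DCT, DCT/CNT and CNT/PC for each of 12 rats, in the order of the 4 groups. DCT/CNT circles lie above the CNT/PC triangles in all 12 rats in both panels, and DCT squares fall far below them in RK9_4 and RK61_4.

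Expressed genes per DCT/CNT nucleus were most numerous in a pair of lean rats. The median was 1746 genes (RK1_4), 1481 (RK3_4) and 1148 (RK5_4) in lean rats and 845 (RK7_4), 1175 (RK9_4) and 1078 (RK16_4) in Obese rats. It was 1231 (RK43_4), 1080 (RK45_4) and 1248 (RK46_4) under sGCact and 1125 (RK57_4), 1050 (RK58_4) and 1112 (RK61_4) under sGCstim. RK1_4 and RK3_4 exceeded all 9 obese rats, and RK5_4 lay within their range. Group means were 1458 ± 299 (Lean), 1033 ± 170 (Obese), 1186 ± 92.8 (Obese+sGCact) and 1096 ± 40.0 (Obese+sGCstim; SD, n = 3).

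On the log2 scale the difference Obese minus Lean was -0.49 ± 0.26 (SE, adjusted p = 0.145 by limma), where 22.7% of 22 clusters were called and all had estimates below 0 (median -0.43). The 3 obese groups minus Lean gave -0.39 ± 0.21 (limma adjusted p = 0.146; exact permutation p = 0.0364, not adjusted), where 18.2% were called. The cluster was therefore not called in either. Both differences were called without the lean rat RK5_4, at -0.65 (limma adjusted p = 0.0275) and -0.55 (limma adjusted p = 0.0305). Among nuclei with 1500 to 2500 UMIs the group means were 1251 ± 130 genes (Lean), 1041 ± 140 (Obese), 1127 ± 71.2 (Obese+sGCact) and 1089 ± 35.5 (Obese+sGCstim). There Obese minus Lean was -0.27 ± 0.091 (SE, limma adjusted p = 0.0452), a smaller difference than without the window, tested over 12 clusters in place of 22. DCT/CNT was the 1 cluster called (8.33%), all 12 estimates had a median of -0.17, and the exact permutation p was 0.2, with 1 of 9 pairs of rats higher in Obese. The 3 obese groups minus Lean gave -0.20 ± 0.074 and was not called (limma adjusted p = 0.0847; 0% of 12 clusters called, 2 at an unadjusted p under 0.05). The window did not level depth, since the median UMIs of its nuclei were 2088 ± 119 in Lean, 1952 ± 112 in Obese, 2019 ± 43.1 under sGCact and 1917 ± 26.6 under sGCstim, and the part of this difference in that of the genes was not tested. It held 78 of 440 members in RK1_4, 127 of 386 in RK3_4 and 278 of 531 in RK5_4. In Obese rats it held 72 of 118 (RK7_4), 62 of 148 (RK9_4) and 270 of 562 (RK16_4). The first quartile of RK1_4 was 2722 UMIs, so the window took only its low end. Treated against Obese, the estimates were 0.21 ± 0.26 for sGCact (limma adjusted p = 0.936; 4.55% called) and 0.10 ± 0.26 for sGCstim (limma adjusted p = 0.957; 0% called). The treated groups differed by 0.11 ± 0.26 (limma adjusted p = 0.843; 0% called). At an unadjusted p under 0.05 there were 3 clusters for sGCstim minus Obese and 1 for sGCact minus sGCstim.

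In that same UMI window DCT/CNT nuclei held about as many genes as their neighbours. The ratio to DCT ran from 0.925 to 1.01 over the 12 rats and that to CNT/PC from 0.974 to 1.12. Without the window the ratio to CNT/PC was above 1 in 12 of 12 rats, from 1.04 to 1.27.

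Mitochondrial transcripts were scarce in DCT/CNT nuclei. Of their 12649530 UMIs the mitochondrial ones made up between 0.00888% and 0.265% in a rat, less than in CNT/PC nuclei in 12 of 12 rats and less than in DCT nuclei in 10 of 12. In 50.9% of the members not a single mitochondrial UMI was counted, against 44.4% of DCT and 36.1% of CNT/PC nuclei. More than 1% was found in 87 members (1.60%), 56 of them in RK16_4, against 890 DCT nuclei (8.66%) and 531 CNT/PC nuclei (5.33%). Among 22 clusters DCT/CNT ranked between lowest and 5th lowest in every rat. Mitochondrial transcripts are made outside the nucleus, and the authors' correction for ambient RNA and their limit of 15% act on these UMIs as well.

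The percentage was 0.0947% (RK1_4), 0.0964% (RK3_4) and 0.0142% (RK5_4) in lean rats. It was 0.0594% (RK7_4), 0.184% (RK9_4) and 0.265% (RK16_4) in Obese rats. Under sGCact it was 0.0699% (RK43_4), 0.0276% (RK45_4) and 0.0232% (RK46_4), and under sGCstim 0.00888% (RK57_4), 0.0454% (RK58_4) and 0.141% (RK61_4). All groups overlapped. RK16_4 was highest, and in RK7_4 the DCT percentage was 21.7 times the DCT/CNT percentage. On the scale of log2(percentage + 0.1), which understates changes of low values, Obese minus Lean was 0.64 ± 0.64 (SE, adjusted p = 0.567 by limma). For sGCact minus Obese it was -0.88 ± 0.64 (limma adjusted p = 0.607), for sGCstim minus Obese -0.70 ± 0.64 (limma adjusted p = 0.399), for sGCact minus sGCstim -0.17 ± 0.64 (limma adjusted p = 0.830) and for the 3 obese groups minus Lean 0.11 ± 0.52 (limma adjusted p = 0.923). In each of the 5 comparisons 0% of clusters were called by limma, and at an unadjusted p under 0.05 there were 3, 2, 3, 2 and 0 clusters in the same order, DCT/CNT not among them. Relative to the other clusters of the same rat, Obese minus Lean turned to -0.12 and sGCstim minus Obese to 0.61. Without RK7_4, RK9_4 and RK61_4 the difference sGCact minus sGCstim was 0.14.

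**Figure D3:**
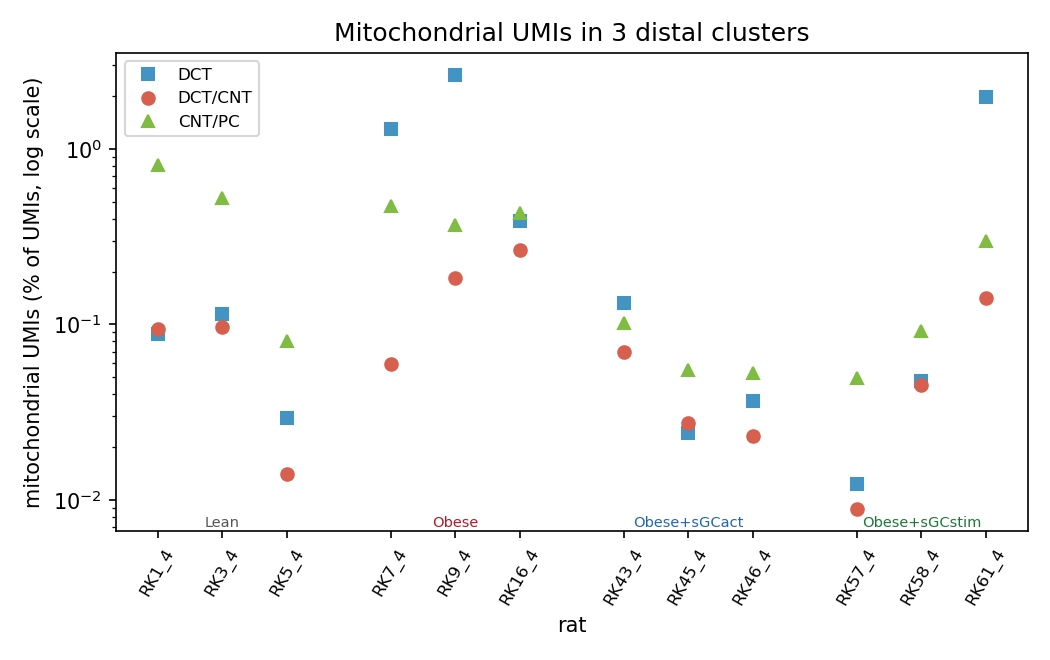
Mitochondrial UMIs in percent of all UMIs (log axis) in DCT, DCT/CNT and CNT/PC nuclei of each of 12 rats. DCT/CNT circles lie below CNT/PC triangles in all 12 rats, and DCT squares reach 1.29% to 2.64% in RK7_4, RK9_4 and RK61_4, where DCT/CNT stays at 0.0594% to 0.184%.

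In the UMAP embedding the members spread along a bridge between both neighbours. Position was measured on the line from the centre of DCT nuclei (0) to the centre of CNT/PC nuclei (1), which was 9.96 embedding units long. Each centre was the mean over the 12 rats of the median coordinates of a rat's nuclei, so every rat counted equally. UMAP distances are not proportional to differences in expression, and the embedding and the clusters come from the same data, so positions are described without a test. Past the midpoint of 0.5 lay 1738 members (31.9%), against 0.233% of DCT and 99.8% of CNT/PC nuclei. Pooled over rats, members on the DCT side had a median of 2130 UMIs and 1171 genes, and those on the CNT/PC side 2230 UMIs and 1177 genes. Within rats the ratio of CNT/PC-side to DCT-side UMIs ran from 0.901 to 1.29 and was above 1 in 8 of 12, all of them obese. The same ratio for genes ran from 0.932 to 1.21 and was below 1 in 9 of 12 rats, against the pooled order. The pooled mitochondrial percentage was 0.0739% on the DCT side and 0.0725% on the CNT/PC side. Within rats its ratio ran from 0.570 to 2.12 and was below 1 in 8 of 12.

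Members from lean rats lay further along the shared line from DCT to CNT/PC. Their median position was 0.449 (RK1_4), 0.428 (RK3_4) and 0.477 (RK5_4). In Obese rats it was 0.388 (RK7_4), 0.385 (RK9_4) and 0.402 (RK16_4), under sGCact 0.391 (RK43_4), 0.385 (RK45_4) and 0.375 (RK46_4), and under sGCstim 0.393 (RK57_4), 0.391 (RK58_4) and 0.426 (RK61_4). The 3 lean rats lay above all 9 obese rats, RK3_4 by a narrow margin over RK61_4. Among members with 1500 to 2500 UMIs this separation was lost, with RK3_4 at 0.421, RK61_4 at 0.446 and RK58_4 at 0.420. Past the midpoint were 39.8% ± 7.24 of members in Lean, 26.9% ± 3.66 in Obese, 26.1% ± 4.16 under sGCact and 32.9% ± 1.26 under sGCstim (SD, n = 3). The 30 nearest nuclei of a member were sought among the nuclei of all rats together. Of these, CNT/PC nuclei made up 8.86% ± 1.90 in Lean, 3.83% ± 1.76 in Obese, 4.67% ± 1.52 under sGCact and 6.29% ± 0.937 under sGCstim. DCT nuclei made up 6.24% in Lean, 9.63% in Obese, 6.26% under sGCact and 6.82% under sGCstim. They were fewer than in Obese rats in 8 of 9 pairs under sGCact and in 9 of 9 under sGCstim. The margins were narrow in places, with RK7_4 (Obese) at 8.19%, RK46_4 (sGCact) at 8.28% and RK61_4 (sGCstim) at 8.00%. RK9_4, 1 of the 3 rats set apart above, was the highest at 11.9%. The CNT/PC nuclei themselves were placed differently, with medians of 1.09 (RK1_4), 1.10 (RK3_4) and 1.09 (RK5_4) in lean rats and of 0.929 to 1.06 in the 9 obese rats. A position on the shared line is therefore not the distance to the CNT/PC nuclei of the same rat. With the line drawn between the DCT and CNT/PC centres of each rat, the lean mean was 0.413 and the mean of the 9 obese rats 0.404, and the groups overlapped.

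**Figure D4:**
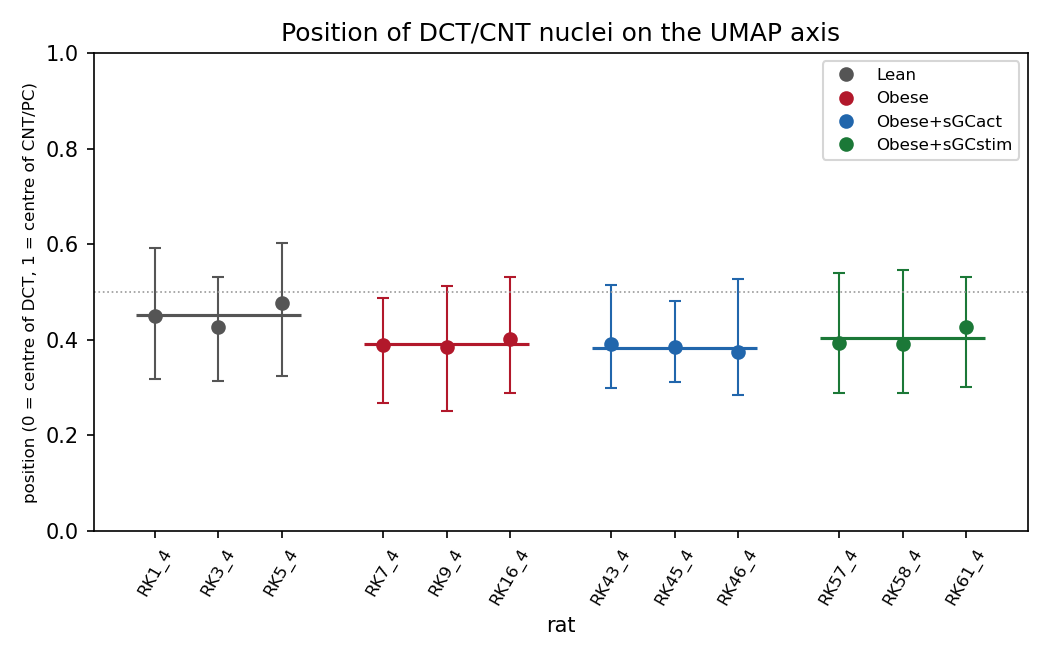
Position of DCT/CNT nuclei on the UMAP line from the centre of DCT (0) to the centre of CNT/PC (1) in 12 rats: points are medians over nuclei, bars run from the first to the third quartile and horizontal lines are group means. The lean medians of 0.428 to 0.477 lie above the 9 obese medians of 0.375 to 0.426, while the quartile ranges of all rats overlap.

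Cell-cycle scores of the cluster were close to 0 in every rat. The mean S phase score was 0.0053 (RK1_4), -0.00030 (RK3_4) and 0.0072 (RK5_4) in lean rats and lay between -0.0047 and 0.0043 in obese rats. Group means were 0.0041 ± 0.0039 (Lean), -0.0028 ± 0.0023 (Obese), -0.0011 ± 0.0028 (Obese+sGCact) and 0.0025 ± 0.0016 (Obese+sGCstim; SD, n = 3). All sGCstim-treated rats lay above all Obese rats (exact permutation p = 0.1). The difference was 0.0054 ± 0.0024 (SE, limma adjusted p = 0.192), where 18.2% of clusters were called by limma. Among nuclei in the UMI window used for genes above, this separation was lost. The group means there were 0.00061 (Obese) and 0.0012 (Obese+sGCstim). RK61_4 (sGCstim) lay at -0.00068, below RK7_4 at 0.0024 and RK9_4 at 0.00059 (both Obese). In the other S score comparisons 0% were called. They were Obese minus Lean (-0.0069 ± 0.0024, limma adjusted p = 0.201), sGCact minus Obese (0.0017 ± 0.0024, limma adjusted p = 0.728), sGCact minus sGCstim (-0.0037 ± 0.0024, limma adjusted p = 0.482) and the 3 obese groups minus Lean (-0.0046 ± 0.0020, limma adjusted p = 0.242). At an unadjusted p under 0.05 by limma these 4 counted 3, 4, 2 and 4 clusters. In Obese minus Lean the smallest of the 22 p-values, not adjusted, was that of DCT/CNT.

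The mean G2M phase score was -0.0128 ± 0.00100 in Lean, -0.0160 ± 0.0023 in Obese, -0.0175 ± 0.0026 under sGCact and -0.0117 ± 0.0025 under sGCstim. It was lower in every sGCact-treated than in every sGCstim-treated rat, by -0.0058 ± 0.0025 (SE, limma adjusted p = 0.210; exact permutation p = 0.1), with 0% of clusters called and 4 at an unadjusted p under 0.05. Of the 22 clusters 19 had estimates below 0 here, with a median of -0.0052. The difference was -0.0082 in DCT, with the same separation of rats, and -0.0055 in CNT/PC, with overlap. The order was thus not particular to DCT/CNT. For Obese minus Lean the cluster had -0.0032 ± 0.0025 (limma adjusted p = 0.397), where 31.8% of clusters were called, all 7 of them upwards. For sGCact minus Obese it had -0.0015 ± 0.0025 (limma adjusted p = 0.642; 4.55% called), for sGCstim minus Obese 0.0043 ± 0.0025 (limma adjusted p = 0.489; 0% called, 3 clusters at an unadjusted p under 0.05) and for the 3 obese groups minus Lean -0.0023 ± 0.0020 (limma adjusted p = 0.4997; 4.55% called). By the authors' phase calls, the percentage of a rat's members in S had group means of 41.03% (Lean), 38.0% (Obese), 37.8% (Obese+sGCact) and 39.1% (Obese+sGCstim). These calls rest on scores near to 0, and no cycling is read from them. A score above 0.2 was rare, with 13 members for S, 5 for G2M and 1 for both, so that 17 of 5450 (0.312%) passed in either. They came from 9 rats, 6 nuclei from Lean, 2 from Obese, 4 from Obese+sGCact and 5 from Obese+sGCstim. In DCT the share was 0.253% and in CNT/PC 0.351%.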

How the data were processed

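The deposited table lists each nucleus with its rat, group, cluster and measures. Per the study's methods the authors made 10x 3' libraries (10000 nuclei loaded), counted UMIs with Cell Ranger (the version differs between the paper and the processing notes) on rn6 with pre-mRNA annotation, corrected ambient RNA, filtered doublets, kept nuclei with 200 to 3000 genes and at most 15% mitochondrial UMIs, integrated the rats and clustered with Seurat at resolution 0.9. The authors deposited UMIs as whole counts per nucleus after ambient RNA correction, without normalization, the mitochondrial share in percent of UMIs, and S and G2M phase values as scores. Genes, coordinates, phase calls and cluster names are deposited as other values.

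Members were nuclei named DCT/CNT. Members, lists and measures were chosen with earlier results of these data known. Rats were tied to groups by the group name only. For each rat the share (log odds with 0.5 nuclei added to the cluster and 1 to the total), median UMIs and genes (log2), mitochondrial percentage of summed UMIs (log2, 0.1 added) and mean scores were fitted over all clusters (25 for shares, otherwise 22 with at least 10 nuclei in every rat) by limma 3.58.1 in R 4.3.3, 4 groups, 8 residual degrees of freedom, Benjamini-Hochberg over clusters, threshold 0.05. The fit of the share alone was tested on simulated data, for Obese minus Lean, with each cluster drawn independently of the others. Real shares depend on each other, and fits of the other measures were not tested in this way. Ratios to DCT and CNT/PC were compared by exact permutation and adjusted over the 10 comparisons. UMAP position was added after its values were seen. An exact permutation test first run on it was dropped for that reason, and it is described without a test. Only DCT/CNT, DCT and CNT/PC are named with values. Alternatives included edgeR 4.0.16 on nucleus counts, other denominators and filters, and each rat left out. Tables and figures used pandas 2.3.3, numpy 2.4.6, scipy 1.17.1 and matplotlib 3.10.9.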

Additional observations from a re-analysis of the deposited data

How the results depend on the processing

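Over 45 results and 579 alternative values, 527 kept their direction and side of the threshold (for positions, moved by less than the spread between rats), 38 turned direction, 3 passed the threshold where the reported value did not, and 11, all of positions, moved further. Of 25 clusters, the share of 3 was called by limma in Obese minus Lean and of 1 in the 3 obese groups minus Lean, against 1 and 3 by edgeR with the total and 4 and 3 with TMM, DCT/CNT never among them. None of the results that turned direction was called before or after. No paired analysis was possible because no label ties a rat in the table to a numbered sample, and the numbers in the sample labels mark different animals.

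The share of all nuclei, in log odds, turned most often. With proximal tubule nuclei out of the denominator, Obese minus Lean was 0.10 and the 3 obese groups minus Lean 0.32, and with the 3 distal clusters as denominator sGCstim minus Obese was -0.047. The 3 obese groups minus Lean was also 0.18 as a centred log-ratio, 0.074 by edgeR with the total, 0.42 by edgeR with TMM, 0.26 with at least 1000 UMIs and 0.15 with at most 1% mitochondrial UMIs. Leaving out RK7_4, RK9_4 and RK61_4, the rats with the lowest shares, was a choice made after the data were seen. It leaves 1 Obese rat, assumed to vary like the other groups, and is no independent check of the share. The share then differed by 0.45 (Obese minus Lean), -0.11 (sGCact minus Obese), -0.18 (sGCact minus sGCstim) and 0.44 (3 obese groups minus Lean). UMIs then differed by 0.20 (sGCstim minus Obese), the mitochondrial percentage by 0.14 (sGCact minus sGCstim), and the log2 ratio to CNT/PC by 0.20 (Obese minus Lean), -0.19 (sGCact minus Obese) and 0.040 (3 obese groups minus Lean).

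Relative to the other clusters of the rat, UMIs differed by 0.18 (Obese minus Lean) and 0.15 (3 obese groups minus Lean), and the mitochondrial percentage by -0.12 (Obese minus Lean) and 0.61 (sGCstim minus Obese). At 1500 to 2500 UMIs genes in Obese minus Lean were called at -0.27, with 12 clusters in place of 22 tested, and the S score of sGCact minus Obese was -0.0013. With at least 1000 UMIs the log2 ratio to CNT/PC in Obese minus Lean was 0.054. With at most 1% mitochondrial UMIs the log2 ratio to DCT was -0.080 (sGCact minus Obese), -0.071 (sGCstim minus Obese) and -0.0093 (sGCact minus sGCstim). The cause was not tested.

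With 1 rat left out, the share ranged from -0.18 to 0.91 (sGCact minus sGCstim) and from -0.44 to 0.0046 (3 obese groups minus Lean), both turning without RK61_4. UMIs ranged from -0.15 to 0.16 (sGCstim minus Obese, turning without RK9_4). Genes ranged from -0.65 to -0.35 (Obese minus Lean) and from -0.55 to -0.25 (3 obese groups minus Lean), both called without RK5_4 alone, and from -0.039 to 0.20 (sGCstim minus Obese, turning without RK7_4). The mitochondrial percentage ranged from -0.43 to 0.14 (sGCact minus sGCstim, turning without RK61_4) and from -0.15 to 0.25 (3 obese groups minus Lean, turning without RK5_4). The log2 ratio to DCT ranged from -0.20 to 0.31 (sGCstim minus Obese, turning without RK9_4, RK57_4 or RK58_4). The log2 ratio to CNT/PC ranged from -0.22 to 0.049 (Obese minus Lean) and from -0.035 to 0.23 (sGCact minus Obese), both turning without RK7_4, and from -0.32 to 0.079 (sGCstim minus Obese, turning without RK61_4).

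Only 3 rats a group and 118 to 152 members in RK7_4, RK9_4 and RK61_4 limit what these comparisons can show.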
